A study of Mus musculus with 9 samples.

Results

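The Arf GTPases are the 6 genes Arf1, Arf2, Arf3, Arf4, Arf5 and Arf6, chosen by name from the 21899 genes of an RNA-seq table of 9 libraries. All 6 were listed once in the table and all 6 passed the filter on low counts that left 12448 genes for testing. The cells were N2a (Neuro-2a), a mouse neuroblastoma line labelled as neuroblast. Each library came from cells with 1 of 3 puromycin-selectable lentiviral pLKO.1 hairpins: shlucif, the control, directed at luciferase, a gene these cells do not have, and shArf1-1 or shArf1-2, both directed at Arf1. There were 3 libraries per hairpin, and the 6 with a hairpin against Arf1 are called Arf1-deficient. The study asked how a lack of Arf1 changes neuronal lipid metabolism, and the comparison made here was whether the other Arf genes rose or fell when Arf1 was lowered. All groups carried a hairpin, so no library came from untouched cells, and a hairpin lowers a transcript without deleting the gene. The labels do not say that the 3 libraries of a group came from separate cultures, so the p-values measure the spread between these libraries, which may be technical.

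Arf proteins are small GTPases that switch between a GDP-bound form and a GTP-bound form held at membranes. Guanine nucleotide exchange factors (GEFs) load them with GTP, GTPase-activating proteins (GAPs) make them hydrolyse it, and in the GTP form they recruit coats such as COPI and the AP-1 adaptor and activate lipid-modifying enzymes. Class I (Arf1, Arf2, Arf3) and class II (Arf4, Arf5) work mainly at the Golgi and the compartments next to it. Class III has Arf6 as its single member, which acts at the plasma membrane and on endosomes. Work in other cells has long treated class I and class II members as partly able to stand in for each other.

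The 2 hairpins were aimed at different parts of the Arf1 coding sequence, and the sites are shown because the paralogs resemble Arf1 there. On GRCm38, shArf1-1 matched exon 3 of Arf1 at chr11:59213222-59213242 and shArf1-2 matched exon 2 at chr11:59213386-59213406, both on the minus strand. Outside the Arf genes, both targets also occurred in full in the annotated pseudogene AC127331.2, and that of shArf1-2 in the pseudogene Gm19587. Neither was listed in the table. In every other Arf gene the best ungapped match was coding sequence at the aligned position. Each line below gives the 21-base target or site on the strand of the transcript, with bases that differ from the hairpin's target in capitals. The sites for shArf1-1 were these.
shArf1-1 target, Arf1: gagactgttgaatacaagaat
Arf2: gagacAgtAgaGtacaaAaaC
Arf3: gagacAgtGgaataTaagaat
Arf4: gaAacAgtAgaataTaagaaC
Arf5: gaAacAgtGgaataTaagaaC
Arf6: gagacGgtGACTtacaaAaaC
Arf3 came closest to the shArf1-1 target, with 3 mismatches (T6A, T9G and C15T, counted from 1 at the 5′ end of the target, the target's base first). Arf2, Arf4 and Arf5 each had 5 mismatches and Arf6 had 7. The sites for shArf1-2 were these.
shArf1-2 target, Arf1: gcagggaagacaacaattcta
Arf2: gcTggCaaAacGacGatCTtG
Arf3: gcCgggaagacCacCatCctC
Arf4: gcTggCaagacGacaattctG
Arf5: gcTggCaagacTacCatCctG
Arf6: gcCggCaagacaacGatCctG
Here Arf4 came closest, with 4 mismatches (A3T, G6C, A12G and A21G). Arf3 and Arf6 had 5 mismatches, Arf5 had 6 and Arf2 had 8. The guide strand made from a hairpin pairs with the target through its seed, guide positions 2 to 8, which face target positions 14 to 20. If the guide starts opposite the last base of the target, the Arf4 site of shArf1-2 was the only one of these 10 paralog sites with 0 mismatches in the seed.

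The 6 genes are alike in coding sequence but distinct enough to be counted apart. Arf1 shared 83.6% of aligned coding bases with Arf3 and 80.5% with Arf2. Arf4 and Arf5 shared 78.7% with each other, Arf1 and Arf6 68.5%, and Arf4 and Arf6 59.8%, the lowest of the 15 pairs. No run of 50 bases in the transcript used for any Arf gene occurred in an annotated transcript of another Arf gene. Pseudogenes and an antisense RNA did share runs: 11.02% of the 50-base runs of Arf1 occurred in the pseudogenes AC127331.2 and Gm19587, 7.68% of those of Arf6 in Gm9887 and 2.88% of those of Arf4 in Arf4os, and none of these genes was listed in the table. How such reads were assigned is not given in the sources used here, so the counts of Arf1, Arf6 and Arf4 carry that uncertainty.

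Libraries held 11182479 to 15594615 counts assigned to genes. Levels are given as FPKM (fragments counted per kilobase of gene length, relative to the assigned total of the library), which allow genes to be compared. Log2 fold changes come from edgeR (quasi-likelihood test) on the counts after scaling by TMM, a library-size correction computed across genes. The p-values were adjusted by Benjamini and Hochberg over the 12448 genes, and a gene passed at an adjusted p under 0.05. Markers of another cell type moved with the groups. The summed FPKM of 18 myeloid markers (Ptprc, Cd68, Lyz2, Csf1r and others) was 204 to 246 in the shlucif libraries and 0.69 to 1.17 in the Arf1-deficient libraries, where 10 to 14 of the 18 had 0 counts, the transcription factor Spi1 and the integrin Itgam among them in all 6. The summed FPKM of 18 sympathetic neuroblast markers was 798 to 842 in the shlucif libraries and 1209 to 1385 in the Arf1-deficient libraries. The part of these shifts in the Arf values below was not tested. In bulk RNA, fewer cells of a type and less RNA per cell cannot be told apart.

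When Arf1 was lowered, Arf6 and Arf5 fell as well, Arf2 and Arf3 did not pass the test in either direction, and Arf4 was the only Arf gene that rose, with 1 of the 2 hairpins. In the comparison of all 6 Arf1-deficient libraries with the 3 shlucif libraries, 3 of the 6 Arf genes were lower and 1 was higher. Of all tested genes, 64.5% were called in that comparison, 32.9% lower and 31.6% higher, so a call by itself sets an Arf gene apart from few others. The median log2 fold change of Arf2 to Arf6 was -0.09, and that of all tested genes was 0.0033.

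**Figure D1:**
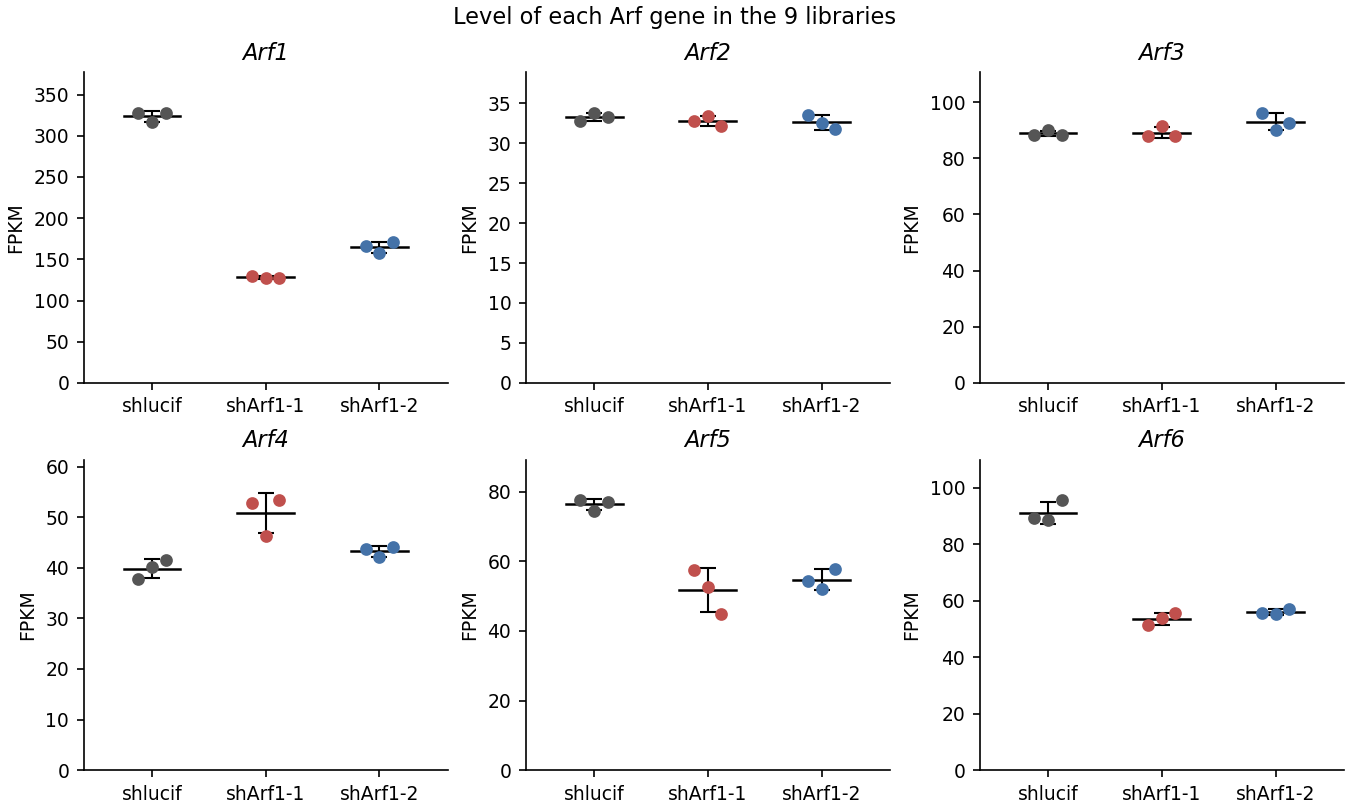
FPKM (y axis, from 0, a separate scale for each gene) of each Arf gene in the 3 libraries of each hairpin (points), with the mean (long bar) and SD (whiskers). Arf1, Arf5 and Arf6 sit lower in all 6 Arf1-deficient libraries than in any shlucif library, Arf2 and Arf3 stay near their control levels, and Arf4 is highest with shArf1-1.

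Arf1, the targeted gene, recruits COPI and adaptor coats at the Golgi. Its FPKM was 328, 316 and 328 in the shlucif libraries 1 to 3. It was 130, 128 and 127 with shArf1-1, and 166, 157 and 171 with shArf1-2. Every library with a hairpin against Arf1 was thus below every control, and every shArf1-1 library was below every shArf1-2 library. In edgeR (quasi-likelihood, Benjamini-Hochberg) the log2 fold change was -1.39 with shArf1-1 (SE 0.05, adjusted p = 1.39e-22) and -1.05 with shArf1-2 (SE 0.05, adjusted p = 4.20e-19). Arf1 was the 106th most abundant of the 15588 genes above 0 FPKM in the control, and still the 297th with shArf1-1 and the 209th with shArf1-2. Even lowered, it stayed the most abundant Arf gene in every library.

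Arf2 and Arf3 are the other class I members and the closest in sequence to Arf1. Arf2 was the least abundant Arf gene in all groups. Its FPKM was 32.8, 33.8 and 33.3 with shlucif, 32.8, 33.3 and 32.1 with shArf1-1, and 33.5, 32.5 and 31.7 with shArf1-2. The groups overlapped. The log2 fold change in edgeR was -0.08 with shArf1-1 (95% interval -0.20 to 0.04) and -0.10 with shArf1-2 (-0.22 to 0.02). Benjamini-Hochberg adjusted p-values were 0.252 and 0.134. On the TMM scale all 6 Arf1-deficient libraries lay below all 3 controls for Arf2, so the overlap of its groups depended on the scale.

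Arf3, an abundant class I member in neural cells, had an FPKM of 88.2, 90.1 and 88.3 with shlucif. It was 87.8, 91.6 and 88.1 with shArf1-1, and 96.2, 90.2 and 92.6 with shArf1-2. In FPKM the shArf1-1 libraries overlapped with the controls and the lowest shArf1-2 library lay just above the highest control. On the TMM scale the shArf1-1 libraries lay just below the controls and the shArf1-2 libraries overlapped with them. The log2 fold change was -0.05 with shArf1-1 (95% interval -0.15 to 0.05) and -0.0049 with shArf1-2 (-0.10 to 0.10). Adjusted p-values (edgeR quasi-likelihood, Benjamini-Hochberg) were 0.388 and 0.938. In this fit the intervals of both genes thus reach at most 0.10 above 0 on the log2 scale, beside a fall of Arf1 of more than 1. The sign of the Arf3 value turned under other scalings, none of which made it pass. With library-size scaling Arf3 was at 0.066 with shArf1-2 (SE 0.045), so that bound depends on the scaling.

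Arf4 and Arf5 form class II and went in opposite directions with shArf1-1, while with shArf1-2 only Arf5 passed the test. Arf4 acts at the ER-Golgi intermediate compartment and the Golgi. Its FPKM was 37.9, 40.1 and 41.5 with shlucif, 52.7, 46.3 and 53.4 with shArf1-1, and 43.7, 42.1 and 44.1 with shArf1-2. All shArf1-1 libraries stood clear above the controls, while the lowest shArf1-2 library lay just above the highest control and the ranges overlapped on the TMM scale. Arf4 rose with shArf1-1, by a log2 fold change of 0.30 in edgeR's quasi-likelihood fit (SE 0.06, Benjamini-Hochberg adjusted p = 3.31e-05). With shArf1-2 the log2 fold change was 0.05 (95% interval -0.07 to 0.17, adjusted p = 0.475 in the same test). Over both hairpins the value was 0.18 (SE 0.08, edgeR adjusted p = 0.0494). That call held with library-size scaling (adjusted p = 0.0089), both limma fits, a length correction and as the mean of both hairpin contrasts (0.0031). It did not hold under a correction for GC content (0.091, adjusted p = 0.235) or with DESeq2 (0.17, adjusted p = 0.0728), nor without any 1 of the 3 shlucif or the 3 shArf1-1 libraries (adjusted p 0.0610 to 0.178).

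Arf5, the other class II member, had an FPKM of 77.6, 74.5 and 77.0 with shlucif. It was 57.5, 52.6 and 44.9 with shArf1-1, the widest spread of any Arf gene in this group, and 54.3, 52.1 and 57.9 with shArf1-2. All 6 Arf1-deficient libraries were below all controls. Arf5 fell with both hairpins, by a log2 fold change of -0.62 (SE 0.07, adjusted p = 5.13e-09) with shArf1-1 and of -0.55 (SE 0.07, adjusted p = 5.31e-08) with shArf1-2 (edgeR quasi-likelihood, Benjamini-Hochberg). The ratio of Arf4 to Arf5 FPKM went from 0.522 ± 0.029 (SD, n = 3) in the control to 0.996 ± 0.169 with shArf1-1 and 0.792 ± 0.025 with shArf1-2.

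Arf6, the class III member, controls endosome recycling and the actin cortex. With gaps counted as differences, it shared 68.5% of aligned coding positions with Arf1, close to the 68.9% of Arf4. The FPKM of Arf6 was 89.3, 88.7 and 95.7 with shlucif, 51.5, 53.8 and 55.5 with shArf1-1, and 55.6, 55.3 and 57.1 with shArf1-2. No Arf1-deficient library came near a control. Among the paralogs that are not targeted, its change was the largest in size: a log2 fold change of -0.82 (SE 0.06, adjusted p = 3.66e-14) with shArf1-1 and of -0.77 (SE 0.06, adjusted p = 1.64e-13) with shArf1-2 (edgeR quasi-likelihood, Benjamini-Hochberg). Among all 12448 genes it ranked 2536th by size of change over both hairpins, where Arf1 ranked 1327th.

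**Figure D2:**
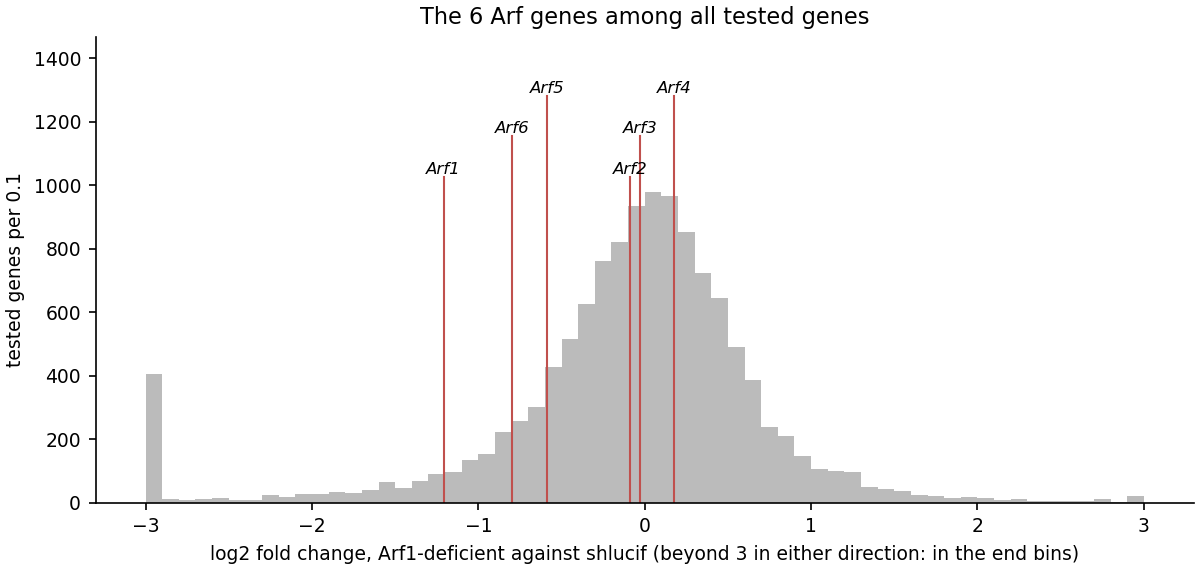
Histogram of the log2 fold changes of the 12448 tested genes between Arf1-deficient and shlucif cells (x axis, bins of 0.1, with changes beyond 3 gathered in the end bins; y axis, genes per bin), with a line at each Arf gene. Arf2, Arf3 and Arf4 lie in the central bulk, and Arf1, Arf6 and Arf5 on its lower side at -1.21, -0.80 and -0.58.

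The per-hairpin calls can be read against those of all genes. With shArf1-1, 3 of the 6 Arf genes were lower and 1 was higher, beside 67.5% of all genes called (34.4% lower, 33.1% higher). With shArf1-2, 3 were lower and 0 higher, beside 63.4% called (32.6% lower, 30.9% higher). Both comparisons used the same 3 control libraries. At an unadjusted p under 0.05 the count of Arf genes higher with shArf1-2 was also 0, and no Arf gene was called higher by DESeq2 or limma in that comparison.

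The hairpins were then compared with each other, a contrast with the control libraries on neither side. The controls still entered the scaling and the estimate of the spread, since the fit held all 9 libraries. Of the 6 Arf genes 1 was higher and 1 was lower with shArf1-2 than with shArf1-1, beside 14.4% of all genes called (6.98% higher, 7.46% lower). Arf1 was higher with shArf1-2 by a log2 fold change of 0.34 (SE 0.05, Benjamini-Hochberg adjusted p = 1.16e-05 in edgeR's quasi-likelihood fit). Arf4 was lower with shArf1-2, at -0.25 (SE 0.06, adjusted p = 0.0030 in the same test). The hairpin that left less Arf1 was thus the one with more Arf4, and every shArf1-1 library exceeded every shArf1-2 library for Arf4. It was also shArf1-2 whose target has the seed-matched site in Arf4 shown above, and the part of that site in the difference was not tested. For Arf2, Arf3, Arf5 and Arf6 the difference did not pass, with 95% intervals of -0.14 to 0.10, -0.06 to 0.14, -0.08 to 0.22 and -0.08 to 0.17 on the log2 scale.

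**Figure D3:**
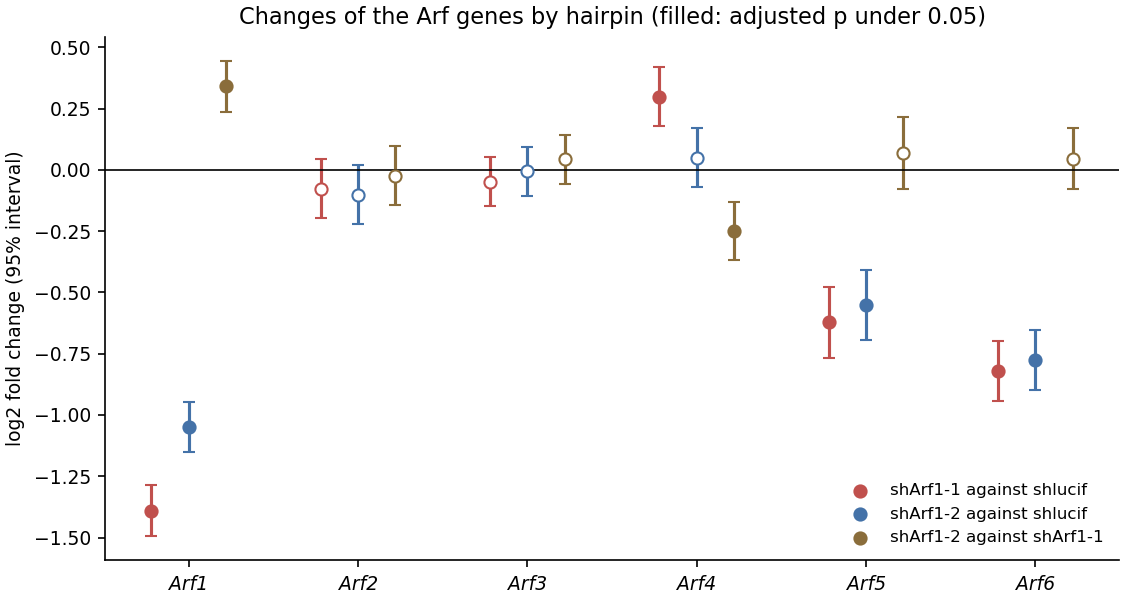
Log2 fold change (y axis) with its 95% interval for each Arf gene in 3 comparisons: each hairpin against shlucif and shArf1-2 against shArf1-1; filled points passed an adjusted p of 0.05. Arf5 and Arf6 lie at about the same negative value with both hairpins, while Arf4 lies above 0 with shArf1-1 and its interval spans 0 with shArf1-2.

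The changes of the paralogs are set here beside their mismatches to each hairpin target. Arf6 fell most of the 5 paralogs with shArf1-1, to whose target it had the most mismatches. Arf3, with the fewest mismatches to that target, had a log2 fold change of -0.05. In the seed, placed as above, each of the 5 paralog sites had 1 mismatch to that target. With shArf1-2 the closest match was Arf4 (0.05). Arf3 and Arf6, with 5 mismatches each and 2 of them in the seed, had log2 fold changes of -0.0049 and -0.77. These are descriptions of 1 site per gene, and the activity of a hairpin on a paralog was not tested.

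**Figure D4:**
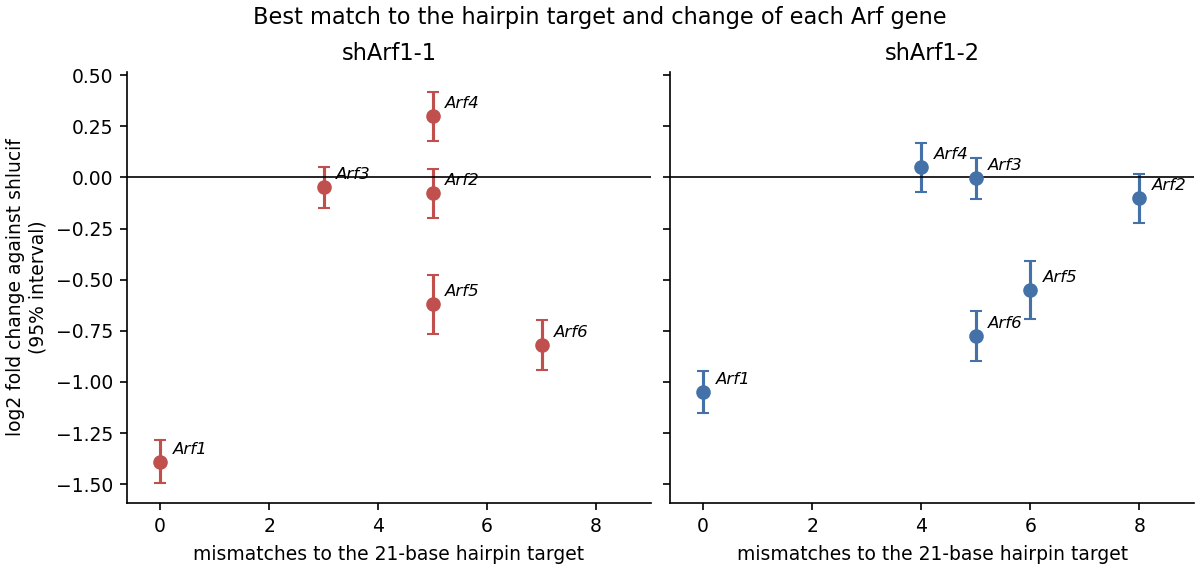
Mismatches between each Arf gene and the 21-base hairpin target (x axis) against the log2 fold change with that hairpin relative to shlucif (y axis, bars are 95% intervals), for shArf1-1 (left) and shArf1-2 (right). Arf1, at 0 mismatches, is the lowest in both panels, and among the paralogs Arf6 is the lowest in both, at 7 and 5 mismatches.

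The order of the Arf genes by FPKM changed below Arf1. In the control the order was Arf1, then Arf6 and Arf3, whose ranges overlapped, then Arf5, Arf4 and Arf2. With shArf1-1 it was Arf1, Arf3, then Arf6, Arf5 and Arf4, whose neighbours overlapped, and Arf2. With shArf1-2 it was Arf1, Arf3, then Arf6 and Arf5, which overlapped, Arf4 and Arf2. The ratio of Arf1 to Arf3 was 3.65 ± 0.12 (SD, n = 3) in the control, 1.44 ± 0.04 with shArf1-1 and 1.77 ± 0.07 with shArf1-2. Arf6 was level with Arf3 in the control, at a ratio of 1.03 ± 0.05, and stood at 0.601 ± 0.025 and 0.603 ± 0.021 of it with the hairpins. Orders depend on the gene length used. The table's lengths of Arf5 (1907 bases) and Arf4 (3603 bases) exceed those of the annotated transcript used here (1116 and 2165 bases), and with the transcript lengths Arf5 moved to the second place in the control, at 130 ± 2.80, and Arf4 came above Arf6 with both hairpins.

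Summed over the 6 genes, Arf transcript levels dropped, and the rise of Arf4 was small beside the fall of Arf1. The sum of Arf1 to Arf6 was 654 ± 10.05 FPKM (SD, n = 3) with shlucif, 406 ± 5.87 with shArf1-1 and 444 ± 13.2 with shArf1-2, changes of -37.8% and -32.0%. Without Arf1, the sum of Arf2 to Arf6 was 330 ± 5.42 FPKM with shlucif, 278 ± 4.18 with shArf1-1 and 280 ± 6.47 with shArf1-2. The 6 Arf1-deficient libraries lay at 272 to 284 FPKM for that sum and the controls at 326 to 336, so the 5 other paralogs together were lower, not higher. With shArf1-1, Arf1 fell by 196 FPKM, and the gain of Arf4, 10.99 FPKM, came to 5.61% of that. Such percentages depend on the gene lengths used. With the transcript lengths, Arf4 went from 66.3 with shlucif to 84.6 with shArf1-1, and Arf1 from 340 to 135. With shArf1-2, Arf1 fell by 159 FPKM, and the Arf4 difference of 3.47 FPKM came to 2.17%, or on the TMM scale 1.43 and 0.828%. Arf6 fell by 37.6 FPKM with shArf1-1 and fell by 35.2 with shArf1-2. Arf5 fell by 24.7 and fell by 21.6 FPKM, so each lost more than Arf4 gained. Arf2 and Arf3 together were at 122 ± 1.54 FPKM with shlucif, 122 ± 2.62 with shArf1-1 and 126 ± 3.67 with shArf1-2. On the TMM scale their sum was 125.8 ± 0.27, 121 ± 2.78 and 123 ± 4.41, so that both hairpins were below the control there.

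**Figure D5:**
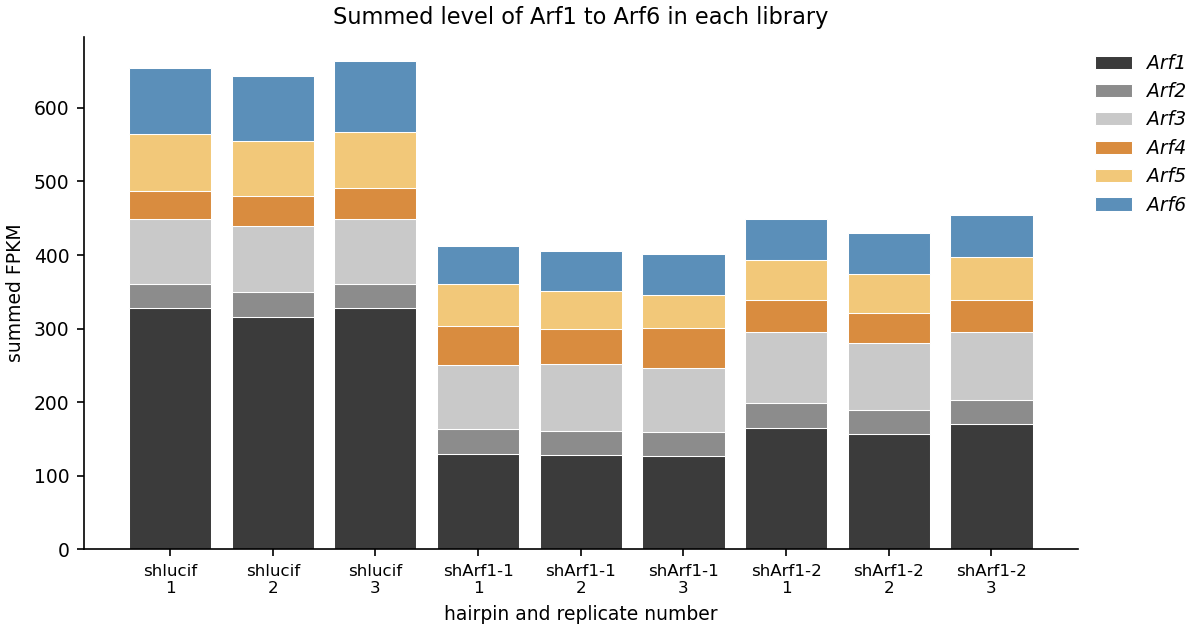
Stacked FPKM (y axis, from 0) of Arf1 to Arf6 in each of the 9 libraries (x axis, hairpin and replicate number). The stacks reach 643 to 664 with shlucif, 401 to 413 with shArf1-1 and 429 to 454 with shArf1-2, and the dark Arf1 block shrinks most.

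The make-up of the Arf pool changed with the sum. Arf1 made up 49.6% ± 0.53 (SD, n = 3) of the summed FPKM in the control, 31.6% ± 0.086 with shArf1-1 and 37.0% ± 0.51 with shArf1-2. The share of Arf3 went from 13.6% ± 0.36 to 21.95% ± 0.66 and 20.9% ± 0.53, and that of Arf4 from 6.09% ± 0.26 to 12.5% ± 0.97 and 9.75% ± 0.046. Arf2 went from 5.09% to 8.06% and 7.34%. Arf5 held 11.7%, 12.7% and 12.3%, and Arf6 14.0%, 13.2% and 12.6%. A gene whose level stays put gains share when Arf1 falls. The larger share of Arf3 and Arf2, and that of Arf4 with shArf1-2, thus came with levels that did not pass the test.

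Promoters of the Arf genes were searched for stress elements because Arf5 fell with both hairpins and Arf4 rose with 1. The RefSeq promoter table (GRCm38.p6, 250 bases before to 50 after a start) held 8 windows for 5 of the 6 genes, all but Arf6. The Golgi apparatus stress response element ACGTGGC was found, on either strand, in both windows of Arf1 and in the window of Arf5, and in 2.58% of all 32851 windows. In Arf1 it overlaps TGACGTGG, a sequence like the cyclic AMP response element, which 0.676% of all windows hold. The palindromes TGACGTCA (1.79% of all windows) and CCACGTGG (0.785%) and the ER stress response element, known as ERSE (0.119%), had no match in the 8 windows. The windows of the 2 class II genes are given 5′ to 3′ on the gene's strand, that of Arf5 at chr6:28423354-28423653 with the element, on the reverse strand, in capitals, and that of Arf4 at chr14:26637884-26638183 without a match.
Arf5 promoter: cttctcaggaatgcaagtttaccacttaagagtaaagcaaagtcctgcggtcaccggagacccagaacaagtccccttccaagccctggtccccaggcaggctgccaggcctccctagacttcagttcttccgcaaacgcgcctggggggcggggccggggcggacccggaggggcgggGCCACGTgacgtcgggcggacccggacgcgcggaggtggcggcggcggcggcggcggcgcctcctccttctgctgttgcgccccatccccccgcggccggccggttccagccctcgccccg
Arf4 promoter: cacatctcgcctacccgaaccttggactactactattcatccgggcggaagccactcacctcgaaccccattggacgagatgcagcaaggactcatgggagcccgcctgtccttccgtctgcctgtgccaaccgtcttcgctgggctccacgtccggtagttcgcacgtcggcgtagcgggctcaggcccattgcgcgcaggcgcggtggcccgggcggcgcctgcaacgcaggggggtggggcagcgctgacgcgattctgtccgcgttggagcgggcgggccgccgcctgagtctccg
Of the Arf genes with a window, the element was thus found in Arf1 and Arf5 and not in Arf2, Arf3 or Arf4. Arf6 could not be searched, and a link between the element and the changes was not tested. A match is a description of the letters in the window and says nothing of a factor's binding.

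Among the proteins that switch Arf or follow it, calls went both ways. Of 68 tested genes in 4 lists, 18 rose, 26 fell and 24 did not pass in the comparison of Arf1-deficient with shlucif cells, so that 64.7% were called beside 64.5% of all tested genes. The median log2 fold change over the 68 was 0.011. Changes named in the next paragraphs come from the same edgeR quasi-likelihood fit, with p-values adjusted by Benjamini and Hochberg over all tested genes. The largest rises and falls are given among genes whose higher group mean reached 5 CPM. Below that level 3 more genes of the lists fell.

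Of 15 GEFs, 4 rose and 7 fell, 73.3% called beside 64.5% of all tested genes, with a median log2 fold change of -0.16. Cyth3, a cytohesin that acts on Arf6 at the plasma membrane, rose most, from 85.0 to 288 CPM (log2 fold change 1.76, SE 0.06, adjusted p = 3.22e-14). Gbf1, which activates Arf at the cis-Golgi and binds brefeldin A, rose from 104 to 148 CPM (0.51, SE 0.06, adjusted p = 3.78e-07). Arfgef1 (BIG1), an exchange factor of the trans-Golgi, rose by 0.15 (SE 0.05, adjusted p = 0.0202). Its partner Arfgef2 (BIG2) did not pass, at 0.04. The largest falls among GEFs above that level were in Cyth4, a cytohesin of blood cells, from 9.67 to 1.35 CPM (log2 fold change -2.84), and Psd4, an Arf6 exchange factor, from 5.60 to 2.56 CPM (-1.13). The fall of Cyth4 stands beside that of the myeloid markers, whose part in it was not tested.

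Of 21 GAPs, 4 rose and 12 fell, 76.2% called beside 64.5% of all tested genes, with a median log2 fold change of -0.22. The largest falls among GAPs above that level were in Arap1 (log2 fold change -0.82, SE 0.09, adjusted p = 1.30e-07), and Arfgap3, a GAP of the COPI cycle (-0.78, SE 0.06, adjusted p = 1.13e-09). The largest rises were in Asap1 (0.56, SE 0.13) and Asap2 (0.43, SE 0.07), GAPs found at focal adhesions. Arfgap1, the first Golgi Arf GAP described, was at 0.011 (SE 0.06) and did not pass.

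Of the 9 COPI subunits, 3 rose, 1 fell and 5 did not pass, a share of 44.4% called beside the 64.5% of all tested genes. Copg1 (log2 fold change 0.46, SE 0.07, adjusted p = 1.16e-05) and Arcn1 (0.41, SE 0.07, adjusted p = 2.65e-05) rose most. Copg2, the alternative form of the gamma subunit, fell by 0.23 (SE 0.06, adjusted p = 0.0016). The 2 gamma subunits thus went apart. Of 23 other effectors and partners, 7 rose and 6 fell, 56.5% called beside the same 64.5%. Pip5k1c, a kinase that makes PI(4,5)P2, rose from 49.6 to 114 CPM (log2 fold change 1.204, SE 0.09, adjusted p = 7.61e-10). Pld2, a phospholipase D that makes phosphatidic acid, fell from 15.2 to 5.18 CPM (-1.54, SE 0.17, adjusted p = 3.37e-07). The small AP-1 subunits Ap1s2 and Ap1s3 changed in opposite directions, at 0.35 and -0.34.

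The genes whose pattern came nearest to each Arf gene were found by Pearson correlation of log2 CPM over the 9 libraries among 10231 genes with enough counts. They are a description, since the points share hairpin groups and libraries. Ptgs1 (r = 0.999) and Cstb (0.998) were nearest to Arf1. For Arf6, Stk40 (0.997) was the nearest. Zscan29 (0.990) and Kxd1 (0.990) were nearest to Arf5. For Arf4 they were Tmsb10 (0.976) and Spata5 (0.974), for Arf2 Egr1 (0.975) and Gtf2f1 (0.962), and for Arf3, which changed least, Nsrp1 (0.900) and Casz1 (0.862). Within the family r was 0.977 between Arf1 and Arf6, 0.947 between Arf1 and Arf5 and -0.698 between Arf1 and Arf4.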

How the data were processed

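Poly(A)-selected RNA of N2a cells was sequenced, and the authors deposited 1 table of read counts per gene and FPKM for the 9 libraries. The aligner, counter and annotation are not given in the sources used here. The genome build in the submitters' processing notes is mm10. Columns of the table were matched to samples by hairpin and replicate. Those of shArf1-2 are headed shArf2 in the table, and were read as the second hairpin against Arf1 because no sample label names a hairpin against Arf2. The heading itself does not settle this. In addition, 8 lines without a gene identifier were left out. Deposited FPKM could be rebuilt from count, gene length and the library's total to a relative difference of at most 1.9e-07. Table coordinates differed from the annotation and were not used. Positions and transcripts are GENCODE vM21 on GRCm38, hairpin targets are those of the study, and promoters are from RefSeq.

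Counts were fitted with edgeR 4.0.16 in R 4.3.3 (expression filter by group, TMM, robust quasi-likelihood), as 2 groups and as 3 groups, and tested on simulated data. Standard errors came from the test's F value. Alternatives used limma 3.58.1 on log2(FPKM + 1) and log2(FPKM + 0.1) and DESeq2 1.42.0, with a GC or length correction among them. Other genes named were the 2 largest rises and the 2 largest falls past the threshold in each list, given 5 CPM or more in the group with the higher mean, the 2 genes most correlated with each Arf gene, and always Gbf1, Arfgef1, Arfgef2 and Arfgap1. Of these, 1 gene is not reported here. The members and gene lists were chosen with earlier results of these data known. Libraries of a group differed by more than counting noise (chi-square per degree of freedom 2.99 to 8.61), and none was a duplicate. No sum over the Arf genes was tested.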

Additional observations from a re-analysis of the deposited data

Results flagged for a closer look

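For 2 of the 6 Arf genes the effects of the hairpins against Arf1 differed by a direct test between them. The change of Arf1 with shArf1-2 minus that with shArf1-1 was 0.34 on the log2 scale (SE 0.05, adjusted p = 1.16e-05 by edgeR's quasi-likelihood test). For Arf4 it was -0.25 (SE 0.06, adjusted p = 0.0030 by the same test), lower in 3 of 3 shArf1-2 libraries than in any shArf1-1 library. What sets these differences was not tested.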

How the results depend on the processing

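Over 24 values (6 Arf genes in 4 comparisons) and all their refits, 476 refitted values kept direction and call, 12 kept direction without passing, and 16 turned the sign of a value that passed in neither fit. The 12 were all of Arf4 over both hairpins: adjusted p was 0.0728 with DESeq2 (log2 fold change 0.17), 0.0550 with upper quartile scaling (0.17), 0.0652 with at least 10 counts in every library (0.17), 0.0648 with the replicate number as a block (0.18), 0.0582 with block and length correction (0.18) and 0.235 with GC correction (0.091). Leaving out 1 library gave 0.14 to 0.21 for it. The numbers did not pair the libraries (mean correlation of same-numbered deviations 0.0070), and the block changed no other call.

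Sign turns were these. Arf3 over both hairpins was 0.036 with library-size scaling, 0.035 with either limma fit and 0.030 with GC correction, with shArf1-1 0.0050, 0.0050 and 0.013, and with shArf1-2 0.066, 0.065 or 0.066 and 0.047, or 0.026 without replicate 2 (leaving out 1 library gave -0.033 to 0.026). With GC correction Arf4 with shArf1-2 was -0.024 and Arf6 between hairpins -0.024. Arf5 between hairpins was -0.029 without shArf1-1 replicate 3, in a range of -0.029 to 0.16. The cause was not tested. Summed FPKM of Arf1 to Arf6 differed by -228 between Arf1-deficient and shlucif cells, by -254 with TMM library sizes and by -249 with transcript lengths, an alternative chosen after seeing the data. For Arf2 to Arf6 the values were -50.7, -64.4 and -62.3. Genes differing between hairpins numbered 1798, and 1159 to 1977 without 1 library, the fewest without shArf1-1 replicate 1 and next 1194 without shArf1-2 replicate 1.

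With 3 libraries per group, intervals of about 0.1 on the log2 scale limit what can be said of Arf2 and Arf3.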
